A study of Mus musculus with 4 samples.

Results

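Ribosome biogenesis genes and the transcription factor Myc were examined in MDSCs (myeloid-derived suppressor cells), which build up in the spleen of hosts with a tumor. The members were 38 genes chosen by name for their part in the synthesis and processing of ribosomal RNA (rRNA) in the nucleolus, and all 38 were found by symbol among the 53465 genes of the count table. Male BALB/c mice, 6 weeks old, carried 4T1 cells, a transplantable mammary carcinoma line, and MDSCs were isolated from their spleens with magnetic beads against Gr-1 (21 days after injection by the labels, a shorter time by the study's methods). The control group (2 libraries) received medium only for 6 h in culture, and the EGCG treatment group (2 libraries) was given EGCG, a catechin from green tea, at 5 μg/mL for the same time. Nothing in the sources says if replicate libraries stand for separate mice, pooled mice or separate wells, so the p values measure only the spread between these libraries. The gate for Gr-1 admits granulocytic and monocytic cells alike, and each library is a bulk sample, in which fewer cells of a type and less RNA per cell cannot be told apart.

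Ribosomes are built in the nucleolus, where RNA polymerase I (Pol I) transcribes a long precursor of rRNA. Small nucleolar ribonucleoproteins (snoRNPs) then modify the precursor, those of the box C/D class by methylation of the ribose and those of the box H/ACA class by pseudouridylation. The small subunit processome and a series of large subunit assembly factors cut and fold the rRNA into the precursors of the 40S and 60S subunits. Myc, which binds the E-box CACGTG together with its partner Max, is a textbook activator of many of these genes, and their expression is known to follow cell growth and division. In the granulocytic lineage, this program is high in dividing progenitors and low in mature neutrophils.

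For 31 of the 38 genes RefSeq promoter windows were available (GRCm38.p6, 250 bases before to 50 bases after each annotated start), and Myc, Tcof1, Npm1, Fbl, Rrp12, Bop1 and Rrs1 had none. The E-box CACGTG, which reads the same on both strands, was found in the windows of 6 of the 31 genes (19.4%), against 11.7% of the 9938 tested genes with a window. The variant CACGCG, searched on both strands, occurred in 12 of the 31 genes (38.7%), against 19.5% of the tested genes. Among all 27025 genes with a window, tested or not, 8.1% had a CACGTG and 10.5% a CACGCG. The median GC content of the members' 40 windows was 59.7%, and that of other windows was not measured. A match of these letters is a description of the window and shows no binding.

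The sites of the 6 genes with a CACGTG are printed below as 30 bases each, 5′ to 3′ on the strand of the gene with the E-box in capitals, because this is the sequence that Myc is known for. They lie at chr10:88826765-88826794 (Utp20, minus strand), chr11:72441347-72441376 (Mybbp1a, plus), chr17:71616220-71616249 (Wdr43, plus), chr11:93885769-93885798 (Utp18, minus), chr11:3963965-3963994 (Pes1, plus) and chr6:125131811-125131840 (Nop2, plus). The E-box begins 20 bases before the annotated start in Utp18 and 60 bases before it in Nop2, and after the start in the other genes.
Utp20: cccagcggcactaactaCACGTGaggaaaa
Mybbp1a: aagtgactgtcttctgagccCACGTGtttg
Wdr43: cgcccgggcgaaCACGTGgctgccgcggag
Utp18: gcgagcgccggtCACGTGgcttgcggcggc
Pes1: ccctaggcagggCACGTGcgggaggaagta
Nop2: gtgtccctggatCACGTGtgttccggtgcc

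The 100 bases before the start are printed for the genes with the most negative and the most positive estimate, Utp20 (chr10:88826815-88826914, minus strand) and Nip7 (chr8:107056777-107056876, plus strand), with matches to CACGTG or CACGCG in capitals. The Utp20 stretch held no match and the Nip7 stretch held 1, a CACGCG.
Utp20: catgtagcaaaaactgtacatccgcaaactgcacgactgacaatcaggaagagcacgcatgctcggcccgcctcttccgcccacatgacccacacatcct
Nip7: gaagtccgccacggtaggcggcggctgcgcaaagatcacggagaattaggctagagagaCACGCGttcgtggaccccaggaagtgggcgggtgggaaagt

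Between 17767318 and 18390385 reads were counted on genes per library, and the 38 genes together took 0.145% and 0.135% of them in the control group and 0.127% and 0.131% in the EGCG treatment group. Each member had at least 89 counts in every library (Polr1b in EGCG replicate 1) and up to 4780 (Ncl in control replicate 1), and all 38 passed the filter on low counts. The libraries were not alike in their distances. The mean chi-square over genes was 6.85 for the pair of control libraries and 6.64 for the pair of EGCG libraries, 7.57 and 6.70 between control replicate 2 and the EGCG libraries, but 16.0 and 12.4 between control replicate 1 and the EGCG libraries. Control replicate 1 was thus the farther of the control libraries from the EGCG treatment group, though no farther from control replicate 2 than the latter was from EGCG replicate 1. Neutrophil markers summed to between 64218 and 84923 CPM (read counts scaled to library size with TMM factors), Ly6g among them at 943 to 1200 CPM, and 10 markers of T or NK cells summed to between 107 and 122 CPM, most of it Cd3d (75.2 to 90.2 CPM). Among epithelial markers of the tumor, Krt19 had 0 counts in every library and Krt8 reached at most 0.110 CPM, while Epcam was at 3.56 and 3.30 CPM in the control group and at 5.07 and 5.54 CPM in the EGCG treatment group (log2 fold change 0.63, adjusted p of 0.235 by edgeR's quasi-likelihood test). Cdh1, the most abundant gene of that list, had an estimate in the other direction, with 22.02 and 20.5 CPM against 16.2 and 19.3 CPM (log2 fold change -0.26, adjusted p of 0.403).

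In the quasi-likelihood test of edgeR, with p values adjusted by Benjamini and Hochberg's method over 14682 tested genes, 0 of the 38 genes had an adjusted p under 0.05 in either direction, where 0.136% of all tested genes were lower and 0.0136% were higher with EGCG. At an unadjusted p under 0.05, 7 members were lower and 1 was higher, against 7.02% and 5.22% of all tested genes. DESeq2 called 0 members at an adjusted p under 0.05, and its unadjusted p was under 0.05 for 3 lower members and 1 higher member, against 3.69% and 2.59% of all tested genes. The adjusted p of the members ran from 0.205 (Utp20) to 0.976 (Npm1), and the standard errors of their log2 fold changes from 0.07 to 0.21. With a library left out, its group held a single library, and the spread between replicates came from the other group alone. At an unadjusted p under 0.05 from edgeR, 2 members were lower and 2 were higher without control replicate 1 (all tested genes, 3.93% and 2.59%), and 4 were lower and 1 was higher without EGCG replicate 1 (6.04% and 4.23%). The counts were 9 lower and 1 higher when control replicate 2 was left out (7.58% and 6.78%), and 7 lower and 1 higher when EGCG replicate 2 was (6.49% and 3.9%).

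The estimates of the members leaned to the lower side. Of the 38 genes, 28 had a log2 fold change below 0 (73.7%), as had 49.4% of all tested genes, and the median was -0.08 for the members and 0.0031 for all tested genes. The sign was not stable in 18 of the 38, since 11 of the 28 below 0 and 7 of the 10 above 0 had the other sign under at least 1 of the 14 alternatives. Leaving out control replicate 1 turned the sign of 9 members and leaving out EGCG replicate 1 that of 10. The EGCG libraries both lay below both control libraries in 16 members (42.1%), against 21.2% of all tested genes, and both above in 1 member (2.63%), against 21.5%. Those lower were Polr1a, Tcof1, Mybbp1a, Ddx21, Ncl, Gnl3, Nop56, Gar1, Heatr1, Utp20, Nop14, Noc4l, Rrp12, Pes1, Wdr12 and Rrs1, and Nip7 alone was higher. No test was made over the members as a list, since they were chosen with earlier results of these data known.

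The size of this lean was close to the difference between the control libraries themselves. The median, over the 38 genes, of the log2 CPM difference of control replicate 2 from control replicate 1 was -0.10, with 24 members lower. Against control replicate 2, the median difference was -0.09 in EGCG replicate 1 (25 members lower) and -0.03 in EGCG replicate 2 (22 lower). Against control replicate 1, it was -0.20 (30 lower) and -0.10 (28 lower). Between the EGCG libraries, the median difference was 0.05 in EGCG replicate 2 against EGCG replicate 1 (11 lower). Without control replicate 1, 23 members had an estimate below 0 and the median was -0.0437, and without control replicate 2 these were 31 and -0.146. The median was -0.0472 without EGCG replicate 1 and -0.134 without EGCG replicate 2.

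**Figure D1:**
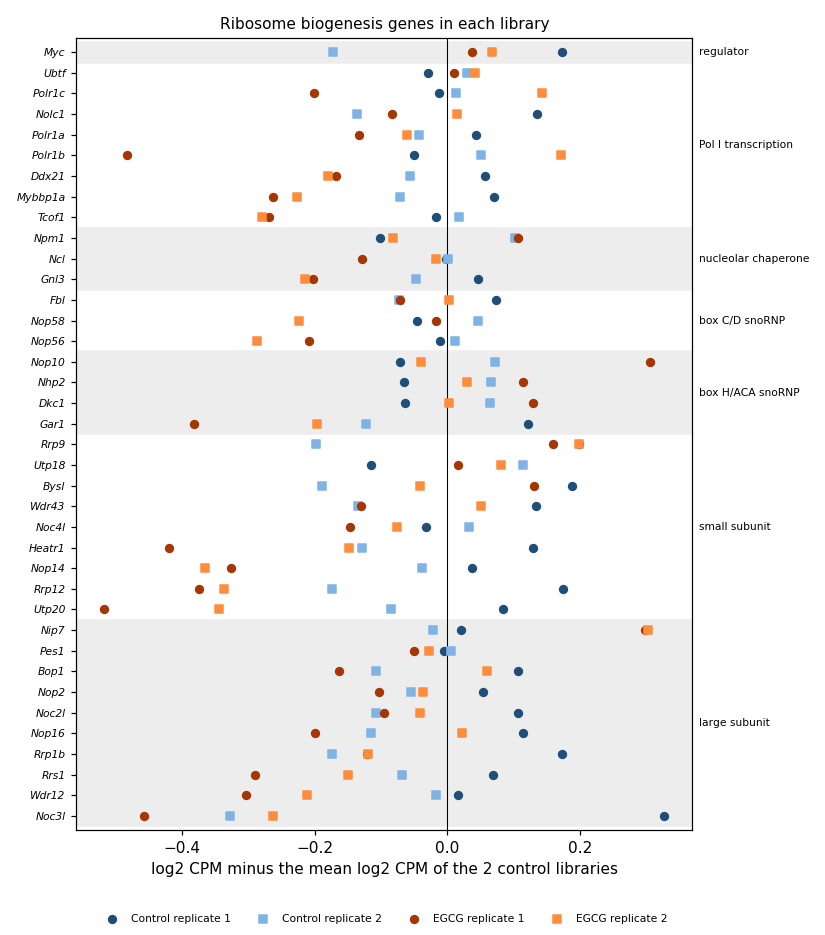
Log2 CPM of each of the 38 genes in the 4 libraries, relative to the mean of the control libraries (x axis), with genes on the y axis grouped by role. In 16 genes both EGCG points lie left of both control points, in Nip7 both lie to the right, and in some genes, such as Noc3l, the control points themselves are far apart.

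Myc (ENSMUSG00000022346, chromosome 15 of GRCm38 from 61985391 to 61990374) was at 20.5 and 16.1 CPM in the control libraries and at 18.6 and 19.0 CPM in the EGCG libraries. Both EGCG values lay between the control values. Its log2 fold change was 0.04 (standard error 0.13, 95% interval from -0.23 to 0.31, adjusted p of 0.932 by edgeR's quasi-likelihood test), and leaving out control replicate 2 gave -0.12 where leaving out control replicate 1 gave 0.23. The sign of the Myc estimate thus depended on which control library was used.

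Among the 8 genes of Pol I transcription and its nucleolar scaffold, 7 had estimates below 0, with a median of -0.11. Tcof1, which encodes the Pol I scaffold treacle, was at 54.4 and 55.7 CPM in the control libraries and at 45.7 and 45.3 CPM in the EGCG libraries. The replicates of each group differed little beside the distance between the groups. Its log2 fold change was -0.27 (standard error 0.08, 95% interval from -0.45 to -0.09), with an adjusted p of 0.223 by edgeR's quasi-likelihood test, and it ran from -0.31 to -0.25 over 14 alternatives. Mybbp1a, a Myb-binding protein of the nucleolus that restrains transcription, had 64.0 and 58.0 CPM in the control group and 50.8 and 52.1 CPM in the EGCG treatment group. The groups did not overlap, and the log2 fold change was -0.25 (standard error 0.09, adjusted p of 0.274). In Ddx21, a nucleolar RNA helicase, the levels were 63.4 and 58.6 CPM against 54.2 and 53.8 CPM (log2 fold change -0.18, and -0.11 when control replicate 1 was left out).

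The subunits of the enzyme itself had estimates nearer to 0. Polr1a, the largest subunit of Pol I, was at 113 and 106 CPM in the control libraries and at 99.7 and 105 CPM in the EGCG libraries, so that the groups were apart by a narrow margin. Its log2 fold change was -0.10 (standard error 0.08, adjusted p of 0.661 by edgeR's quasi-likelihood test), and 0.014 with a correction for gene length. It was -0.048 when control replicate 1 was left out and -0.058 when EGCG replicate 1 was. Polr1b, the second largest subunit, had 6.63 and 7.11 CPM in the control libraries and 4.91 and 7.73 CPM in the EGCG libraries, which enclosed the control values. Its log2 fold change of -0.12 was -0.48 without EGCG replicate 2 and 0.17 without EGCG replicate 1. Polr1c, a subunit shared with Pol III, had an estimate of -0.02, which was 0.14 without EGCG replicate 1 and -0.20 without EGCG replicate 2. Ubtf, the architectural factor of rDNA chromatin, had one of 0.03 with an interval from -0.13 to 0.18. The estimate of Ubtf was 0.0015 without control replicate 1 and -0.0089 with scaling by library size only. Nolc1, also called Nopp140, a chaperone of snoRNPs, had an estimate of -0.04, which became 0.11 when control replicate 1 was left out and -0.17 when control replicate 2 was.

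Of the abundant nucleolar proteins, nucleolin (Ncl, chromosome 1 from 86344719 to 86359400) was at 262 CPM in each control library and at 240 and 259 CPM in the EGCG libraries. EGCG replicate 2 lay close to the control group and EGCG replicate 1 below it. The log2 fold change of Ncl was -0.07 (standard error 0.07, 95% interval from -0.23 to 0.09, adjusted p of 0.749 by edgeR's quasi-likelihood test), and it was 0.019 with the length correction, -0.015 without EGCG replicate 1 and -0.13 without EGCG replicate 2. Nucleophosmin (Npm1) had 78.6 and 90.5 CPM in the control group and 90.8 and 79.7 CPM in the EGCG treatment group, 1 low and 1 high value in each, with a log2 fold change of 0.01 that turned to -0.082 when control replicate 1 was left out. Of the 31-base words in the transcripts of Npm1, 29.4% also occur in transcripts of other genes, so its counts are uncertain. Gnl3 (nucleostemin), a nucleolar GTPase, was at 20.6 and 19.3 CPM against 17.3 and 17.2 CPM, with a log2 fold change of -0.21 and an interval from -0.45 to 0.03.

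The 3 members that are core proteins of the box C/D snoRNPs had estimates below 0. Nop56 was at 30.3 and 30.8 CPM in the control libraries and at 26.4 and 25.0 CPM in the EGCG libraries. Its groups were well apart relative to the replicates, for a log2 fold change of -0.25 (standard error 0.10, adjusted p of 0.336 by edgeR's quasi-likelihood test). Its partner Nop58 had 27.6 and 29.4 CPM in the control group and 28.2 and 24.4 CPM in the EGCG treatment group (log2 fold change -0.12), and here the groups overlapped. The estimate of Nop58 was -0.019 with the length correction, -0.016 when EGCG replicate 2 was left out and -0.22 when EGCG replicate 1 was. Fibrillarin (Fbl), the methyltransferase of the same particles, was at 15.1 and 13.7 CPM against 13.7 and 14.4 CPM. The log2 fold change of Fbl was -0.04 (standard error 0.12, adjusted p of 0.940), and its sign turned when control replicate 1 (0.044) or EGCG replicate 1 (0.0026) was left out. Sequence shared with other genes amounts to 22.4% of the 31-base words of Nop56 and 21.8% of those of Fbl.

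In the box H/ACA snoRNPs, 3 of 4 core proteins had estimates above 0. Dyskerin (Dkc1), the pseudouridine synthase, was at 15.7 and 17.2 CPM in the control libraries and at 17.98 and 16.5 CPM in the EGCG libraries, for a log2 fold change of 0.07 (standard error 0.12, adjusted p of 0.872 by edgeR's quasi-likelihood test). Nhp2 was at 26.7 and 29.3 CPM against 30.3 and 28.6 CPM, for a log2 fold change of 0.07 (standard error 0.10, adjusted p of 0.829). In both genes the groups overlapped, and the estimates depended on single libraries, at 0.0038 for Dkc1 without EGCG replicate 1, 0.012 for Nhp2 without control replicate 1, and 0.13 and 0.14 without control replicate 2. Nop10, the smallest of these proteins, had 9.42 and 10.4 CPM in the control group and 12.2 and 9.63 CPM in the EGCG treatment group. The estimate of 0.14 (standard error 0.16, adjusted p of 0.767) was -0.039 without EGCG replicate 1. Gar1 went the other way, with 10.4 and 8.79 CPM against 7.34 and 8.34 CPM and a log2 fold change of -0.29 (standard error 0.16, 95% interval from -0.64 to 0.05), which became -0.16 when control replicate 1 was left out.

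Of the 9 small subunit factors, 6 had estimates below 0 (49.4% of all tested genes), and 4 of these had an unadjusted p under 0.05 (7.02% of all tested genes). These 4 were Utp20, Heatr1, Nop14 and Rrp12, with unadjusted p values of 0.0164, 0.0596, 0.0750 and 0.0779 by DESeq2. Utp20 (ENSMUSG00000004356, chromosome 10 from 88746607 to 88826804), a large scaffold protein of the small subunit processome, was at 19.0 and 16.9 CPM in the control libraries and at 12.5 and 14.1 CPM in the EGCG libraries. Every EGCG value lay below the control values. The log2 fold change of Utp20 was -0.43 (standard error 0.13, 95% interval from -0.70 to -0.16), and its adjusted p of 0.205 by edgeR's quasi-likelihood test was the smallest among the members. The exons of Utp20 span 10199 bases, and its estimate was -0.34 with the correction for gene length. Leaving out control replicate 1 also gave -0.34 and leaving out EGCG replicate 2 gave -0.52, and the adjusted p lay between 0.0702 and 0.726 over 14 alternatives. Nop14, which acts in the same particle, had 13.9 and 13.2 CPM in the control group and 10.8 and 10.5 CPM in the EGCG treatment group, a log2 fold change of -0.35 (standard error 0.13, adjusted p of 0.315). In Noc4l, the binding partner of Nop14, the levels were 11.8 and 12.4 CPM against 10.9 and 11.5 CPM (log2 fold change -0.11).

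Heatr1, a processome protein that also acts in Pol I transcription, was at 38.1 and 31.8 CPM in the control libraries and at 26.03 and 31.4 CPM in the EGCG libraries. Control replicate 2 and EGCG replicate 2 were nearly equal. Its log2 fold change was -0.28 (standard error 0.12, adjusted p of 0.355 by edgeR's quasi-likelihood test), and it was -0.14 when control replicate 1 was left out, -0.15 when EGCG replicate 1 was and -0.42 when EGCG replicate 2 was. Rrp12, a factor of 40S precursor export, had 14.7 and 11.5 CPM against 10.0 and 10.3 CPM, for a log2 fold change of -0.37 (standard error 0.15, adjusted p of 0.344). Its estimate was -0.18 when control replicate 1 was left out and -0.53 when control replicate 2 was. Wdr43, which like Heatr1 links the processome to transcription, had an estimate of -0.04, which was 0.10 when control replicate 1 was left out and -0.17 when control replicate 2 was.

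Rrp9, Utp18 and Bysl were the small subunit factors with estimates above 0. Rrp9, a protein of the U3 snoRNP, was at 13.03 and 9.90 CPM in the control libraries and at 12.7 and 13.04 CPM in the EGCG libraries, so that control replicate 2 alone was low. The log2 fold change of Rrp9 was 0.16 (standard error 0.15, adjusted p of 0.706 by edgeR's quasi-likelihood test), 0.38 without control replicate 1 and -0.017 without control replicate 2. Utp18 had an estimate of 0.04 (-0.061 without control replicate 1), and Bysl (bystin), a factor of late 40S maturation, one of 0.03 (-0.14 without control replicate 2). Part of the exonic sequence of Bysl (9.4%) overlaps Ccnd3 on the other strand, which counting without strand cannot separate.

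Among the 10 large subunit factors, 9 had estimates below 0 (median -0.08), against 49.4% of all tested genes. Of these 9, 0 had an unadjusted p under 0.05, where 7.02% of all tested genes were lower at that threshold. With so few genes, a count of 0 does not set them apart from all tested genes. The 3 proteins of the PeBoW complex, which acts in the maturation of 28S and 5.8S rRNA, had estimates of unequal size. Bop1 was at 31.9 and 27.5 CPM in the control libraries and at 26.4 and 30.8 CPM in the EGCG libraries (log2 fold change -0.05, standard error 0.11, adjusted p of 0.897 by edgeR's quasi-likelihood test). Its estimate turned to 0.064 when control replicate 1 was left out and to 0.058 when EGCG replicate 1 was. Pes1 had 53.2 and 53.6 CPM against 51.6 and 52.3 CPM (log2 fold change -0.04), groups apart by a small step, and 34.8% of its 31-base words occur in other genes. Wdr12 had 12.6 and 12.3 CPM against 10.1 and 10.7 CPM, with a log2 fold change of -0.26 and an interval from -0.54 to 0.03. With the length correction, the estimate of Wdr12 was -0.15.

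Nip7 (ENSMUSG00000031917, chromosome 8 from 107056877 to 107060931), a factor of 60S assembly and pre-rRNA processing, was the exception. It was at 22.3 and 21.7 CPM in the control libraries and at 27.0 and 27.1 CPM in the EGCG libraries. The replicates of each group nearly coincided and the EGCG values were higher. Its log2 fold change was 0.30 (standard error 0.10, 95% interval from 0.09 to 0.52, adjusted p of 0.255 by edgeR's quasi-likelihood test), and it ran from 0.26 to 0.33 over 14 alternatives, with adjusted p values from 0.238 to 0.752. Of its 31-base words, 11.2% occur in other genes.

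The other large subunit factors had estimates from -0.40 to -0.07. Noc3l, the lowest, was at 9.69 and 6.16 CPM in the control libraries and at 5.63 and 6.44 CPM in the EGCG libraries. Only control replicate 1 was high, and without it the log2 fold change was -0.025, whereas leaving out control replicate 2 gave -0.68. Rrs1, which brings the 5S RNP into the 60S precursor, had 22.3 and 20.3 CPM against 17.4 and 19.1 CPM (log2 fold change -0.22, interval from -0.46 to 0.02), with an estimate of -0.15 when either control replicate 1 or EGCG replicate 1 was left out. The estimates were -0.13 for Rrp1b, -0.09 for Nop16, -0.07 for Noc2l and -0.07 for the rRNA methyltransferase Nop2. When control replicate 1 was left out, they were 0.058, 0.034, 0.043 and -0.011, in the same order. When control replicate 2 was left out, they were -0.29, -0.20, -0.17 and -0.12. Of the exonic bases of Noc2l, 20.9% overlap Samd11 on the other strand.

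**Figure D2:**
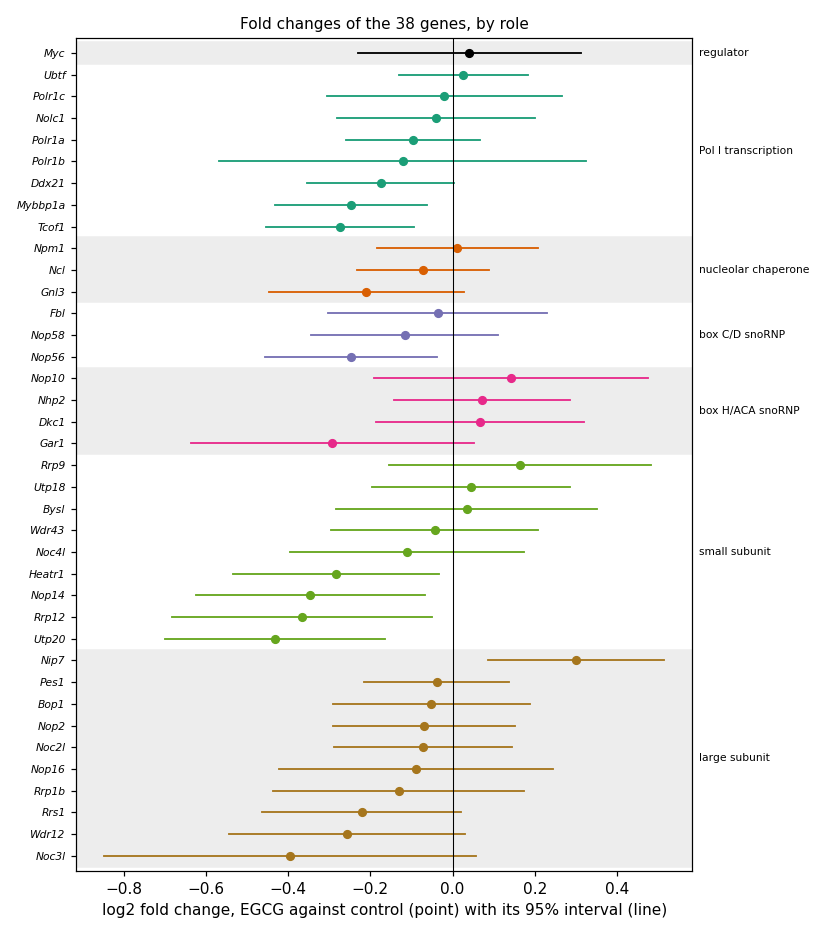
Log2 fold change (EGCG against control, x axis) of the 38 genes with 95% intervals, grouped by role and colored by it. The intervals of 7 genes lie wholly below 0 (Utp20, Tcof1, Mybbp1a, Nop14, Nop56, Rrp12 and Heatr1) and that of Nip7 lies above, and none of these passes the adjustment over all tested genes.

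Levels between genes were compared per length, as CPM per kilobase of the transcript with the longest coding sequence (RPKM). Npm1 had the highest level, at 51.8 ± 5.18 RPKM in the control libraries and 52.2 ± 4.83 RPKM in the EGCG libraries (SD, n = 2). Ncl followed at 32.0 ± 0.0533 RPKM in the control libraries, then Ubtf at 29.1 ± 0.836 RPKM and Nhp2 at 26.9 ± 1.72 RPKM. Over the 4 libraries the ranges of Ncl and Ubtf overlapped, as did those of Ubtf and Nhp2, and below them Pes1 stood apart from its neighbors at 18.3 ± 0.0911 RPKM. Myc itself ranked 22 of 38, at 7.83 ± 1.32 RPKM in the control libraries, and was not separated from its neighbors in the order by more than their spread. Polr1b (1.72 ± 0.0850 RPKM) and Wdr12 (1.24 ± 0.0201 RPKM) were the lowest. The levels depend on the length used. Per kilobase of all annotated exons, Npm1 was at 31.7 RPKM in the control libraries, Nhp2 (24.4 RPKM) ranked above Ubtf (20.8 RPKM), and Myc ranked 17, at 6.74 RPKM, while Polr1b and Wdr12 stayed the lowest. The annotated transcripts of Ncl (8202 bases), Nop58 (9507 bases) and Wdr12 (10012 bases) are long, and the RPKM of these genes is low to the extent that their bases are not all in the RNA.

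**Figure D3:**
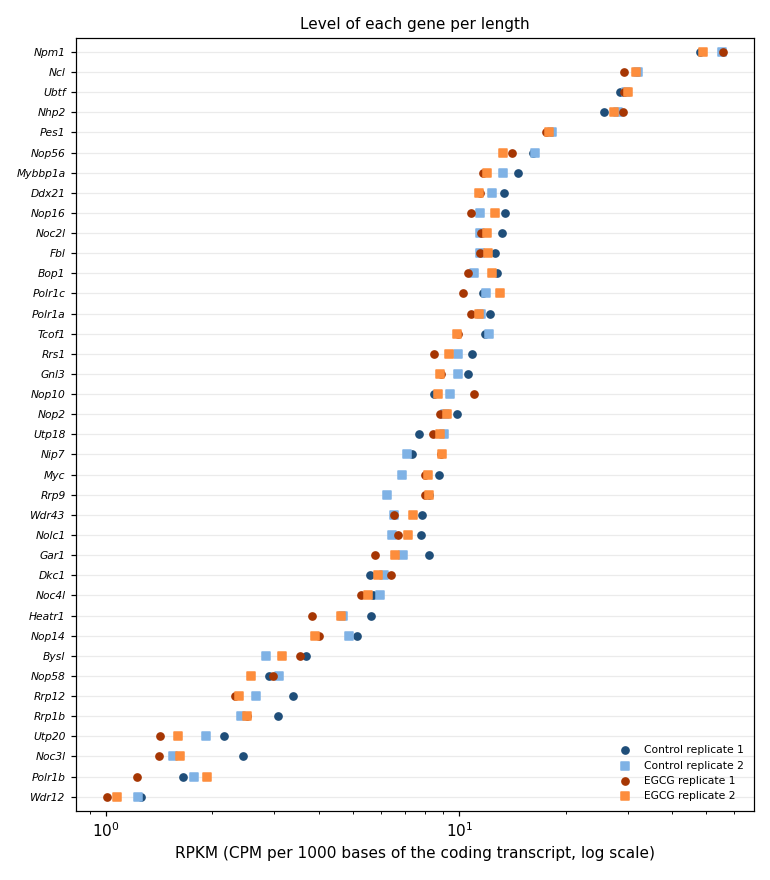
RPKM of each gene (x axis, log scale) in the 4 libraries, ordered by the mean over libraries. Levels run from about 1.24 RPKM for Wdr12 to 51.8 RPKM for Npm1 in the control group, and for most genes the 4 points lie closer together than the range between genes.

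Longer genes had lower log2 fold changes, among the members as among all tested genes. Across the 38 genes, which share their libraries and are not independent replicates, the Spearman correlation of log2 fold change with exonic length was -0.38, and it was -0.29 across all tested genes with a length. In the 13 longest members (5177 to 11955 bases), 12 had estimates below 0, with a median of -0.18, whereas all tested genes in that range of length had a median of -0.05. The 13 shortest members (1109 to 2933 bases) had 8 estimates below 0 and a median of -0.07, where all tested genes in that range had a median of 0.06. In the 12 members between them the median was -0.04, against 0.02. With a correction for length in each library, the correlation across members was -0.08, the median of the members was -0.0750 and 27 of the 38 had an estimate below 0, 0 of them with an adjusted p under 0.05. The part of length in the lower estimates of single long genes was not tested otherwise.

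**Figure D4:**
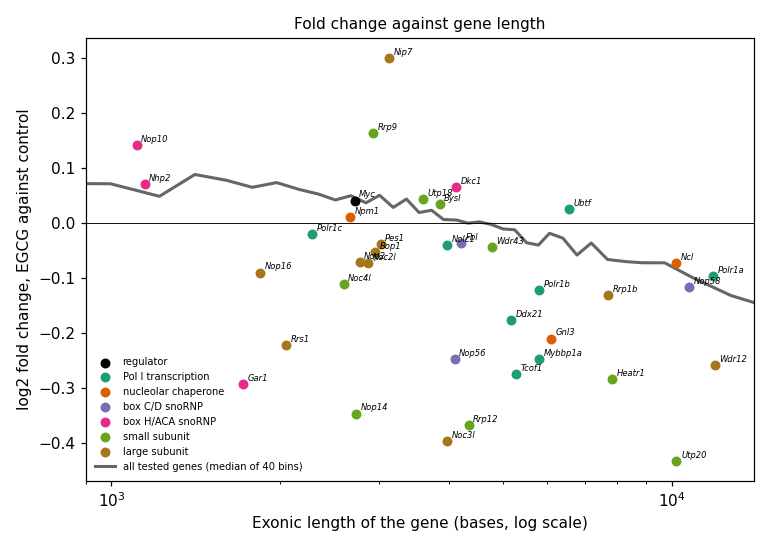
Log2 fold change against exonic length (log scale) for the 38 genes, colored by role, with a line for the median of all tested genes in 40 bins of length. The line falls from left to right, and 12 of the 13 longest members lie below 0, with Utp20 the lowest point.

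Hosting of snoRNA genes was not used to choose the members. In the GENCODE M21 annotation, 6 of the 38 (15.8%) hold snoRNA genes within their bounds on the same strand, namely Ncl, Gnl3, Nop56, Nop58, Dkc1 and Wdr43, against 1.7% of 11902 protein-coding genes with at least 40 counts over the 4 libraries. The 19 hosted snoRNA genes had at most 3 counts in any library, so these libraries give no measure of the snoRNAs. Among the 6 genes with a CACGTG in their promoter window, 5 had estimates below 0 and the median was -0.06, and among the 25 with a window but no CACGTG, 18 were below 0 and the median was -0.10.

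Other genes of the pathway are given by their own counts, and no difference between them and the members was tested. Of 94 tested genes of a further ribosome biogenesis list, 54 had estimates below 0 (median -0.03), against 49.4% of all tested genes. At an adjusted p under 0.05 there were 0, against 0.136% lower and 0.0136% higher of all tested genes. At an unadjusted p under 0.05, 10 were lower and 2 higher, against 7.02% and 5.22% of all tested genes. The lowest p of that list was that of Mdn1, which encodes a giant AAA ATPase of 60S assembly (log2 fold change -0.54, standard error 0.11, adjusted p of 0.0717), and on the higher side that of Nsa2, another 60S factor (0.19, standard error 0.08, adjusted p of 0.391). The remaining Pol I machinery (16 genes) had 5 estimates below 0 and a median of 0.08, from Polr2h with -0.32 (standard error 0.18, adjusted p of 0.524) to Taf1b with 0.20 (standard error 0.12, adjusted p of 0.537). In the RNA exosome, which trims rRNA precursors, 6 of 13 tested genes were below 0 (median 0.07), with Exosc1 at -0.17 (adjusted p of 0.737) and Exosc5 at 0.19 (adjusted p of 0.455). All of these adjusted p values are from edgeR's quasi-likelihood test.

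Of the genes around Myc, 0 had an adjusted p under 0.05 by edgeR's quasi-likelihood test. Among all tested genes, 0.136% were lower and 0.0136% higher at that threshold, so a count of 0 does not set these lists apart. Of 13 tested genes of the Myc network, 5 had estimates below 0 (median 0.05). At an unadjusted p under 0.05, 3 were lower and 1 was higher, against 7.02% and 5.22% of all tested genes. The ubiquitin ligase Mycbp2 had a log2 fold change of -0.33 (standard error 0.07, adjusted p of 0.0946 by edgeR's quasi-likelihood test) and the Myc antagonist Mxi1 one of 0.23 (standard error 0.08, adjusted p of 0.246). Of 40 Myc targets outside the nucleolus, 23 were below 0 with a median of -0.01. The translation initiation helicase Eif4a1 stood at -0.21 (standard error 0.08, adjusted p of 0.325) and lactate dehydrogenase Ldha at 0.22 (standard error 0.07, adjusted p of 0.260).

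Of the marker lists for other cell types, 0 genes were called in either direction by edgeR's quasi-likelihood test, and their summed levels are given here beside the members. In a proliferation list of 26 genes, 16 had estimates below 0 (median -0.0071) and 1 was called lower, against 0.136% of all tested genes. That gene, Mki67, which marks cycling cells, was at 293 and 279 CPM in the control libraries and fell to 209 and 201 CPM in the EGCG libraries (log2 fold change -0.48, standard error 0.07, adjusted p of 0.0245 by edgeR's quasi-likelihood test). With the length correction its log2 fold change was -0.39 (adjusted p of 0.0540), and its adjusted p lay between 8.05e-05 and 0.525 over the alternatives. Mcm5, a replication helicase subunit, had the lowest p on the higher side (0.14, standard error 0.09, adjusted p of 0.579). All 9 macrophage markers had estimates below 0, and their summed level was 463 and 449 CPM in the control libraries against 344 and 383 CPM in the EGCG libraries. The 5 tested endothelial markers were also below 0, with sums of 35.9 and 33.6 CPM against 19.6 and 26.1 CPM. Neutrophil progenitor markers such as Mpo and Elane summed to 792 and 783 CPM against 811 and 764 CPM, overlapping between the groups. The summed level of the monocyte markers was 1238 and 1166 CPM against 1084 and 1120 CPM, and that of the 12 neutrophil markers 64218 and 75992 CPM against 84923 and 75454 CPM. Basophil or eosinophil markers summed to 1279 and 1159 CPM against 1130 and 988 CPM. Most of this was Prg2 (865 and 747 CPM against 738 and 607 CPM). Of the 8 genes, 5 had estimates below 0 and 3 above, among the latter Fcer1a (log2 fold change 0.37). Platelet markers, with 5 of 5 tested genes below 0, summed to 38.8 and 44.0 CPM against 35.7 and 34.6 CPM. Most of that sum was Itga2b (30.4 and 29.3 CPM against 26.1 and 23.1 CPM). In both lists the EGCG sums were the lower ones, but each sum mainly reflects 1 gene. The sums of B cell markers (431 and 443 CPM against 480.2 and 441 CPM), plasma cell markers (378 and 391 CPM against 414 and 389 CPM), erythroid markers (164 and 208 CPM against 191 and 216 CPM) and dendritic cell markers (19.3 and 16.6 CPM against 15.8 and 17.1 CPM) overlapped between the groups. Markers of T or NK cells summed to 107 and 116 CPM against 121 and 122 CPM, both EGCG sums above both control sums. Epithelial markers of the tumor summed to 26.8 and 24.3 CPM against 22.9 and 25.9 CPM, overlapping between the groups. The part of these cells in the values of the ribosome biogenesis genes was not tested.

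**Figure D5:**
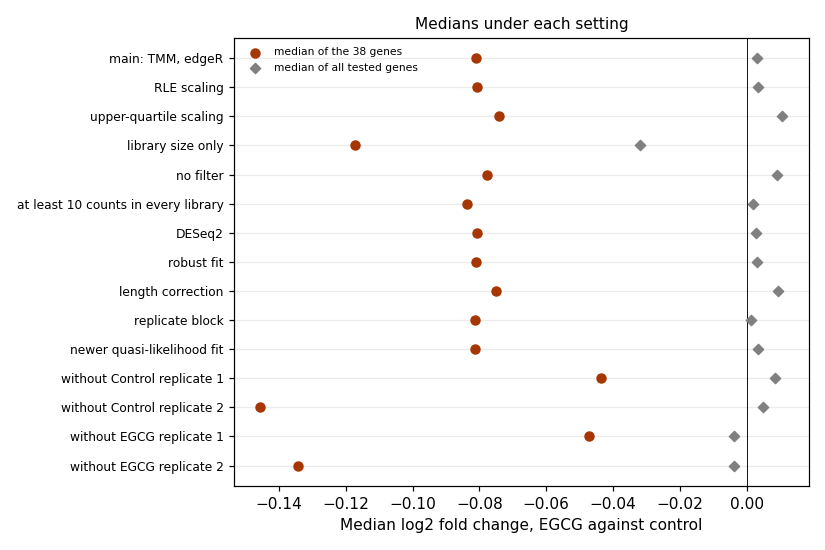
Median log2 fold change (x axis) of the 38 genes and of all tested genes under each alternative of scaling, filter, tool, length correction, block and left-out library. The members' median stays below that of all tested genes in each setting, between -0.146 without control replicate 2 and -0.0437 without control replicate 1.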

How the data were processed

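RNA-seq counts of 4 libraries were used. Reads were mapped with STAR 2.6.0c to GRCm38 by the authors, who counted them with featureCounts 1.6.2 on Ensembl release 91 genes without regard to strand, and deposited whole-number counts per gene, not normalized. There were 0 columns of other samples and 0 rows that name no gene. From these counts, edgeR 4.0.16 (R 4.3.3) was run with filterByExpr (minimum count of 10), TMM scaling and the quasi-likelihood test in its legacy form, which the study's methods name, with Benjamini-Hochberg adjustment over 14682 genes and a threshold of 0.05. The standard error is the log2 fold change divided by the square root of F, and 95% intervals use the test's degrees of freedom. An exact permutation test (two-sided) of 2 against 2 libraries cannot give a p below 0.333 and was not used for single genes. The fit and the length correction (loess of log count on log exonic length, span of 0.4, as an offset) were tested on simulated data. Lengths and positions came from GENCODE M21, which lacked 16 tested genes. Members and lists were chosen with earlier results of these data known. Full statistics were given for Myc, the 4 members with the smallest adjusted p in each direction and a leading member of each role; values of other members were added. Of each further pathway list, the genes with the smallest adjusted p in each direction were named. Alternatives covered scaling, filter, DESeq2 1.42.0, robust fit, length, a replicate block and each library left out. Depth was similar in all libraries, and counts are not corrected for PCR duplicates. Python 3.11.15 and matplotlib 3.10.9 drew the plots.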

Additional observations from a re-analysis of the deposited data

How the results depend on the processing

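Under each of the 14 alternatives, 0 of the 38 genes had an adjusted p under 0.05, and the members' median stayed below 0, from -0.146 to -0.0437 with a library left out. The number of members with an estimate below 0 ran from 23 to 31. Of 16 genes given in full, Mki67 included, 213 of the comparisons with an alternative kept direction and side of the threshold. In 9 the direction turned, and in 2 a call was lost. With the length correction, the log2 fold change became 0.014 for Polr1a and 0.019 for Ncl. With a library left out, the log2 fold change ran from -0.118 to 0.230 for Myc, -0.105 to 0.044 for Fbl, -0.167 to 0.064 for Bop1, -0.017 to 0.382 for Rrp9 and -0.039 to 0.306 for Nop10. Mki67 lost its call with no filter (adjusted p of 0.525) and with the length correction (0.0540).

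Over all genes, 20 were lower and 2 higher at an adjusted p under 0.05 by edgeR's quasi-likelihood test. The lower count became 9 with upper-quartile scaling, 135 with library size only, 0 with no filter, 38 with DESeq2, 49 with the robust fit and 6 with the length correction. The higher count became 16 with library size only, 0 with no filter, 4 with at least 10 counts in every library, 12 with DESeq2, 14 with the robust fit and 6 with edgeR's newer fit, an alternative added after the data were seen. With a library left out, these counts ran from 72 to 235 and from 5 to 119. In those fits, the spread between replicates came from the group that kept both libraries. Library size only moved the median of all genes to -0.0319, so the share of lower genes depends on the scaling. Same-numbered libraries share a number and no stated source, and their deviations correlated at 0.0336 over genes; with the replicate block, 6 genes were higher and 24 lower, and 0 members were called. The causes of these shifts were not tested.

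The standard errors of the members ran from 0.07 to 0.21 with 2 libraries a group, and estimates over 3 standard errors from 0, such as that of Utp20, did not pass the adjustment over all genes.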
